A study of Saccharomyces cerevisiae with 24 samples.

Results

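The transcripts described here encode 60 ribosome biogenesis factors of the yeast Saccharomyces cerevisiae. They were chosen by systematic name, as 60 of the 6685 rows of the deposited expression table, for the roles of their proteins: 6 proteins of the nucleolar snoRNPs (small nucleolar ribonucleoproteins), 7 subunits of UTP-A and 6 of UTP-B in the small-subunit processome, 10 other small-subunit factors, 22 factors of 60S assembly, and 9 helicases and GTPases. RNA-seq was performed on polyA-enriched RNA of strain BY4741, a haploid laboratory strain whose LEU2, MET17, URA3 and HIS3 genes carry deletions. Heat-shocked cells were collected 20 min after a shift to 37 °C, and unstressed cells at 30 °C just before it. Each of 4 cultures gave 3 samples per condition, 1 for each isolation method: hot acid phenol followed by a column clean-up (Phenol), the silica column kit RNeasy, and the Direct-zol kit, which uses TRIzol. This makes 6 groups of 4 libraries, 24 in all, and all 60 transcripts passed the filter on low values (6137 of the 6685 transcripts did).

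Ribosome biogenesis begins in the nucleolus, where snoRNPs modify the pre-rRNA, the small-subunit processome folds and cleaves it, and separate factors assemble the 60S subunit before it is exported to the cytoplasm. The genes of these factors form a regulon that growing yeast transcribes strongly and that is turned down in many stresses, heat shock among them. Upstream of many of them lie a pair of short motifs, PAC and RRPE (the ribosomal RNA processing element), which are bound in yeast by the repressors Dot6 and Tod6 and by Stb3.

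Levels are given as scaled TPM, the deposited TPM divided by a factor for each library (0.776 to 1.27). TPM is a share of a library's mRNA, so a lower value means a smaller share. In bulk RNA, fewer cells that express a gene and less RNA per cell cannot be told apart. TPM do not carry the read depth, and precision is given by the spread over the 4 cultures. The labels were checked on 8 heat shock genes, each of which was higher in every heat-shocked library than in any unstressed library of the same method, and on the deletions: LEU2, MET17 and URA3 stayed at or below 0.11 scaled TPM in all 24 libraries, whereas HIS3, whose deletion in this strain is partial, averaged between 59.3 and 119.7 in the 6 groups. For the 60 members, the heat-shocked Direct-zol library of culture 1 deviated most from its group, by a median of 0.50 on the log2 scale. All 60 lay above their group mean in it, as 59 did in the heat-shocked RNeasy library of culture 1. The counts of called members are given with and without this Direct-zol library.

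The promoters of the members share sequences that were not used to choose them. The windows printed here, read from the RefSeq copy of genome build R64 (sacCer3), the build of the deposited data, run 5′ to 3′ on the strand of the gene over the 250 bases before the start of the open reading frame and the first 50 bases of it. Capitals mark PAC (GATGAG or its complement CTCATC) and RRPE (AAAAATTT or its complement AAATTTTT). NOP7 and KRE33 are shown for deep heat responses and the presence of both motifs, and RRP36 and CGR1 for having no RRPE match.
NOP7 (chrVII:695167-695466, plus strand): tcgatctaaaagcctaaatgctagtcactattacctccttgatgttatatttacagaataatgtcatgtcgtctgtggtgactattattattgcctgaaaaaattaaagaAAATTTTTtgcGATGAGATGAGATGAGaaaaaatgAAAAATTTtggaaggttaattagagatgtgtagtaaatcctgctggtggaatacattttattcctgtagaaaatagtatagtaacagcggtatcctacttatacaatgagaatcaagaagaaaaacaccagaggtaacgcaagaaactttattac
KRE33 (chrXIV:375071-375370, plus strand): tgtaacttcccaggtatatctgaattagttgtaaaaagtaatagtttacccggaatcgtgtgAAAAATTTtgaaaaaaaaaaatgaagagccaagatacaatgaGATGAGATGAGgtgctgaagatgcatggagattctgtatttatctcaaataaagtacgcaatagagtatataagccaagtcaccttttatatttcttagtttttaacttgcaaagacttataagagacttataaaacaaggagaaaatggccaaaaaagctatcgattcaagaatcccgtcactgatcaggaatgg
RRP36 (chrXV:851790-852089, minus strand): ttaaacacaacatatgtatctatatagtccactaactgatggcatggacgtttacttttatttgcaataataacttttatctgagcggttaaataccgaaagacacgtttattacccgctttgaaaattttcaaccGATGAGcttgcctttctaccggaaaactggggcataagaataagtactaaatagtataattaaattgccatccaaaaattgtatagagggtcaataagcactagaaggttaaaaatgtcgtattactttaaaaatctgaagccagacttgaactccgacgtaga
CGR1 (chrVII:439813-440112, plus strand): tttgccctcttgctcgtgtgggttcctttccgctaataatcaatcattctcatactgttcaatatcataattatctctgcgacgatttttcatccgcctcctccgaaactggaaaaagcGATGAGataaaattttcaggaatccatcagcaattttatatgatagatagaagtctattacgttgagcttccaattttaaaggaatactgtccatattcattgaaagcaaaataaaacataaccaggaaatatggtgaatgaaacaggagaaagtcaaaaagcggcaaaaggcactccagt

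PAC was present in 58 of the 60 windows (96.7%), against 20.4% of all 6001 windows of the same length in the genome. RRPE was present in 53 of the 60 (88.3%), against 14.1% of all windows. Both motifs occurred together in 51 members (85.0%), against 5.63% of all windows. No member lacked both, whereas 71.1% of all windows did. The 7 members with PAC alone were MAK5, UTP7, CGR1, ENP2, NOC3, UTP13 and RRP36, and 2 members had RRPE alone. In the 250 bases before the start alone, PAC was found in 57 members (95.0%, against 17.0% of all windows) and RRPE in the same number as before, 53 (13.4% of all windows). A longer form of RRPE, GAAAAATTT, which contains the shorter one, was found in 38 members (63.3%, against 6.08%).

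The matches had a narrow place. The upstream match nearest to the start began at a median of 114 bases before it for PAC (-114, interquartile range -125 to -100) and at -136 for RRPE (-153 to -117). In 44 of the 50 members with both motifs upstream, RRPE lay farther from the start than PAC. The first bases of the nearest pair were a median of 22 bases apart, and 41 of the 50 pairs lay within 50 bases. In NOP7, 3 overlapping PAC matches lay between a pair of RRPE matches. RLP24 had the most PAC matches, 4, of which 1 was inside the open reading frame, and NOG2 the most RRPE matches, 4. Adjacent RRPE matches can share letters, since a run such as the one upstream of SPB1 holds the motif on both strands and counts once for each.

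**Figure D1:**
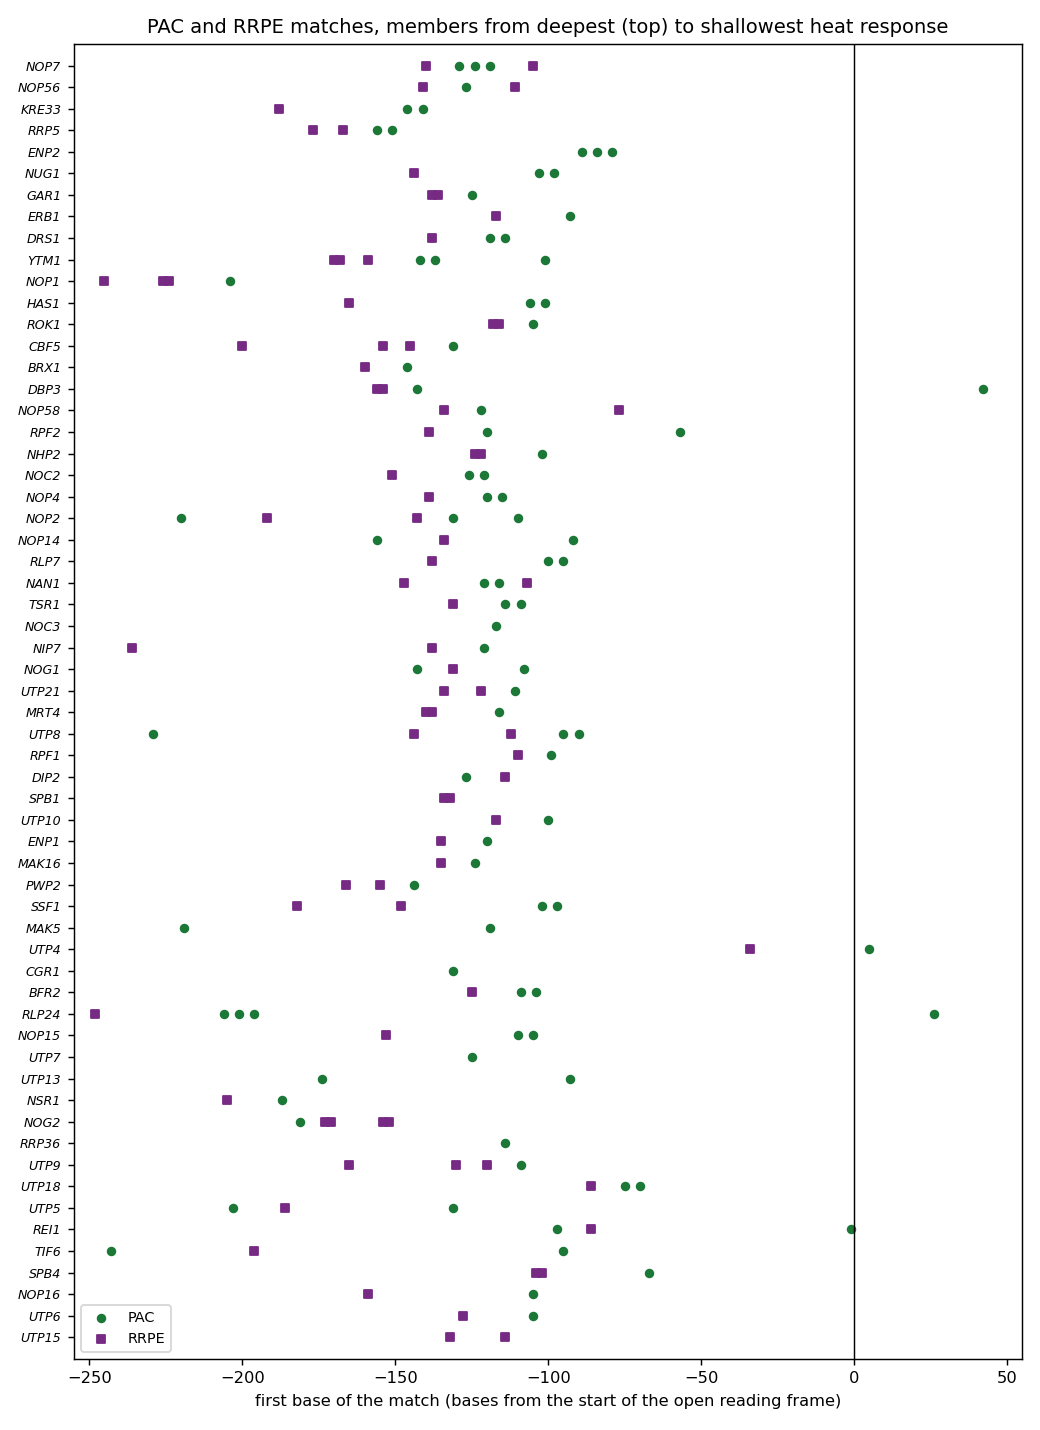
PAC (circles) and RRPE (squares) matches in the window of each of the 60 members, as the distance in bases of the first base of the match from the start of the open reading frame (0, vertical line). Members run down the page from the deepest heat response (NOP7) to the shallowest (UTP15), and the nearest matches have medians of -114 (PAC) and -136 (RRPE).

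Motifs bound by activators of the heat response were no more frequent in the members. The stress response element AGGGG (complement CCCCT), bound by Msn2 and Msn4, was in 9 of the 60 windows (15.0%), against 21.6% of all windows. A unit of the heat shock element, GAANNTTC, which reads the same on both strands and is bound by Hsf1, was in 3 (5.0%), against 11.8%. A match is a description of letters and not a binding site.

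The first comparison asked how heat shock changed these transcripts with each isolation method. All 60 members fell after heat shock with Phenol, with RNeasy and with Direct-zol (limma on log2(scaled TPM + 1), Benjamini-Hochberg adjusted p under 0.01 over 6137 transcripts). Of all transcripts tested, 32.8% were called lower with Phenol, 32.1% with RNeasy and 32.1% with Direct-zol. The members' median log2 fold change was -1.79 with Phenol, -1.79 with RNeasy and -1.88 with Direct-zol, where the median over all transcripts was -0.00, 0.01 and 0.02. In all 60 members and with every method, each heat-shocked library was below each unstressed one, which held for 31.1% (Phenol), 33.5% (RNeasy) and 33.6% (Direct-zol) of all transcripts. Without the heat-shocked Direct-zol library of culture 1, all 60 were again called lower with each method, and the Direct-zol median was -2.03.

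The members together made up 0.271% ± 0.0314 of TPM in heat-shocked and 0.877% ± 0.0761 in unstressed Phenol libraries (SD, n = 4 in each group here and below). The shares were 0.383% ± 0.0658 in heat-shocked and 1.20% ± 0.158 in unstressed RNeasy libraries. In Direct-zol libraries they were 0.353% ± 0.0850 after heat shock and 1.10% ± 0.101 without it. With each method the heat-shocked cells thus gave the module a share several times smaller, with no overlap between the groups.

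The snoRNP proteins fell most, with median log2 fold changes of -2.37 (Phenol), -2.30 (RNeasy) and -2.38 (Direct-zol), closely followed by the helicases and GTPases at -2.19 (Phenol), -2.28 (RNeasy) and -2.35 (Direct-zol). The 60S assembly factors (-1.82, -1.86 and -1.86) and the other small-subunit factors (-1.81, -1.82 and -1.82) were at the middle. UTP-A (-1.59, -1.58 and -1.66) and UTP-B (-1.51, -1.55 and -1.65) fell least. The differences between groups were not tested, and each group spans a wide range: within 60S assembly alone the mean over methods ran between -3.12 for NOP7 and -1.16 for NOP16.

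**Figure D2:**
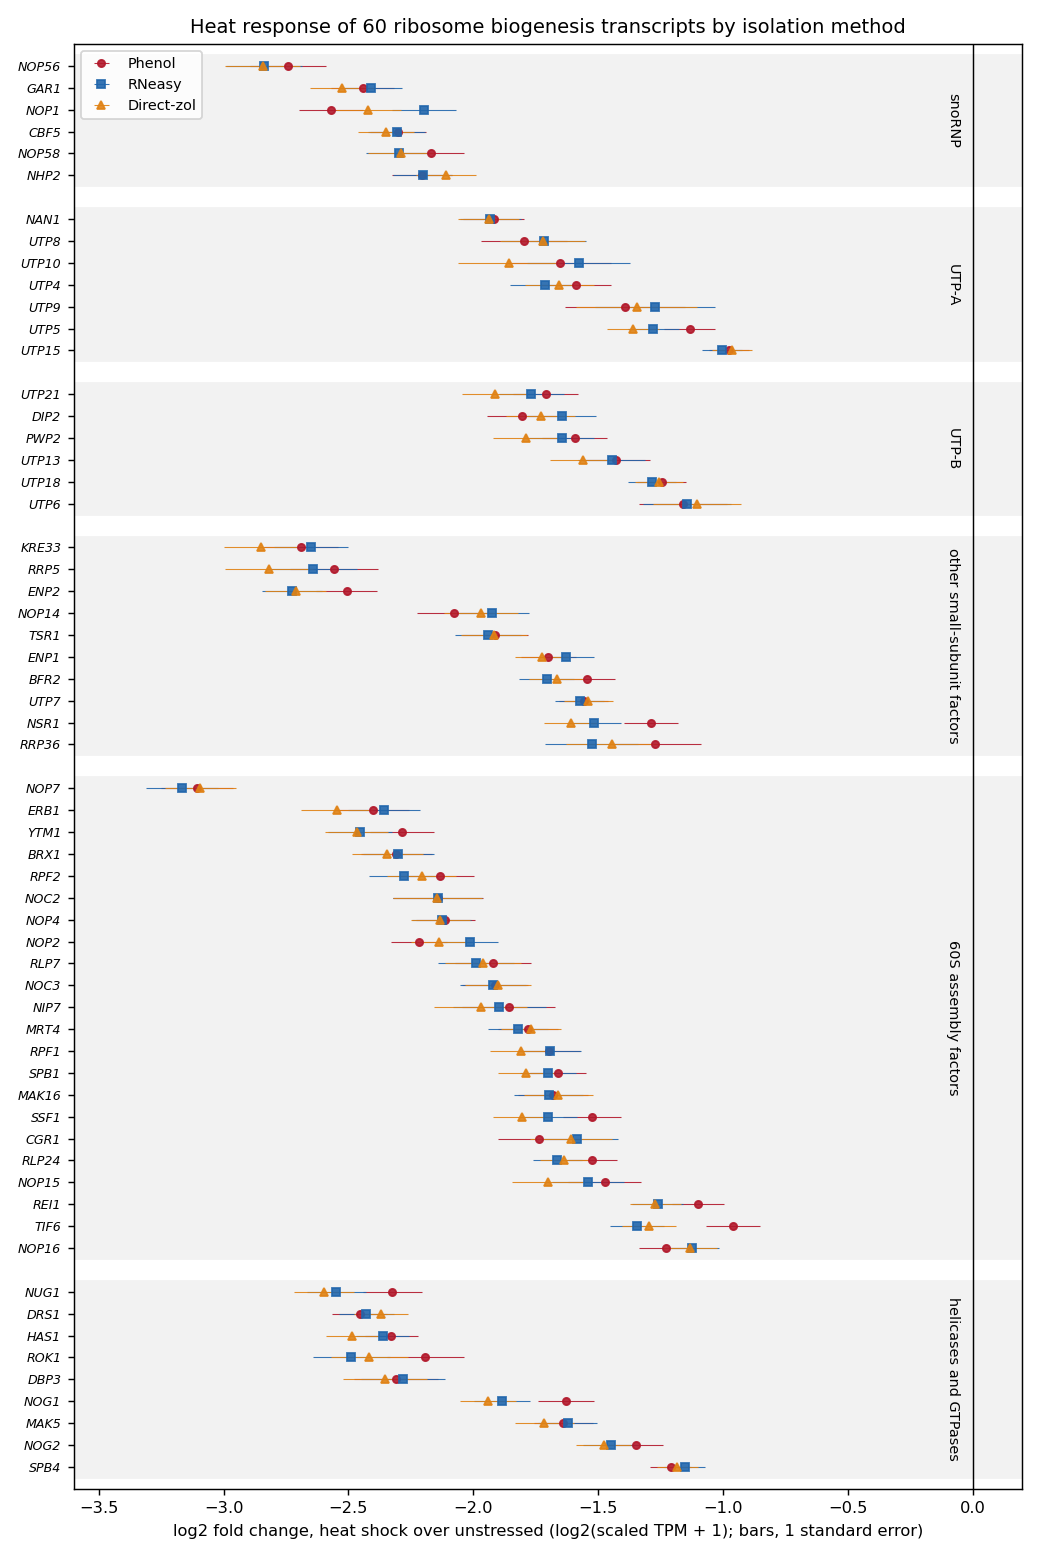
Log2 fold change of heat-shocked over unstressed libraries for each of the 60 members, by isolation method (Phenol circles, RNeasy squares, Direct-zol triangles), with bars of 1 standard error and members grouped by role. All values lie below 0, between -3.17 (NOP7, RNeasy) and -0.96 (TIF6, Phenol), and the 3 methods give close values for most members.

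NOP7 (YGR103W), a 60S assembly factor that works in a complex with Erb1 and Ytm1, had the deepest response of the 60. Its level was 36.0, 36.6, 25.6 and 32.5 in heat-shocked Phenol libraries, against 285, 272, 259.7 and 333 in unstressed ones. It was 48.8, 29.3, 32.7 and 45.7 in heat-shocked RNeasy libraries, against 366, 277, 332 and 454 in unstressed ones. It was 51.0, 29.1, 30.4 and 31.7 in heat-shocked Direct-zol libraries, against 295, 254, 317 and 355 in unstressed ones. Every heat-shocked library thus lay far below every unstressed one, and the log2 fold changes were -3.11 ± 0.14 (SE) with Phenol, -3.17 ± 0.14 with RNeasy and -3.09 ± 0.14 with Direct-zol (limma, largest adjusted p 4.3e-13). Averaged over methods this left 11.5% of the unstressed level. Its partners ERB1 and YTM1 fell by less, to 18.5% and 18.9%.

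At the other end, UTP15 (YMR093W), a subunit of UTP-A, which is the first complex to join the pre-rRNA, kept 50.7% of its level. It was 59.8, 56.7, 58.4 and 58.7 in heat-shocked Phenol libraries, against 122, 109, 109 and 123 in unstressed ones. It was 52.8, 45.7, 50.2 and 47.0 in heat-shocked RNeasy libraries, against 95.5, 92.9, 95.9 and 113 in unstressed ones. It was 69.3, 59.4, 49.5 and 51.4 in heat-shocked Direct-zol libraries, against 111, 109, 104 and 124 in unstressed ones. The groups did not overlap here either, and the log2 fold changes were -0.97 ± 0.08 with Phenol, -1.004 ± 0.08 with RNeasy and -0.96 ± 0.08 with Direct-zol (limma, largest adjusted p 2.2e-09).

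Among the snoRNP proteins, NOP1 (YDL014W, fibrillarin, the methyltransferase of the box C/D snoRNPs) was the most abundant of all 60 members. Its level was 189, 184, 162 and 212 in heat-shocked Phenol libraries, against 1109, 896, 1209 and 1251 in unstressed ones. With RNeasy it was 164, 121, 123 and 118 after heat shock, against 603, 581, 630.2 and 588 in unstressed cells. With Direct-zol it was 218, 159, 125 and 144 after heat shock, against 843, 819, 777 and 972 in unstressed cells. Heat shock lowered NOP1 by log2 fold changes of -2.57 with Phenol, -2.20 with RNeasy and -2.42 with Direct-zol. NOP56, a core protein of the same snoRNPs, fell most in this group (-2.74 with Phenol, -2.84 with RNeasy and -2.84 with Direct-zol). NHP2, of the H/ACA snoRNPs that guide pseudouridylation, fell least in it (-2.21 with Phenol, -2.20 with RNeasy and -2.11 with Direct-zol).

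KRE33 (YNL132W), the acetyltransferase of 18S rRNA, had the deepest response among the other small-subunit factors. It averaged 18.4 ± 4.05 scaled TPM in heat-shocked and 123 ± 13.3 in unstressed Phenol libraries. Its log2 fold changes were -2.69 with Phenol, -2.65 with RNeasy and -2.85 with Direct-zol. RRP5, needed for both subunits, and ENP2 followed, with means over methods of -2.67 and -2.65. NSR1, the yeast nucleolin and the most abundant of this group, fell by less (-1.29 with Phenol, -1.52 with RNeasy and -1.61 with Direct-zol).

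In UTP-A, NAN1 fell most (-1.92 with Phenol, -1.93 with RNeasy and -1.94 with Direct-zol). In UTP-B, UTP21 fell most (-1.71 with Phenol, -1.77 with RNeasy and -1.91 with Direct-zol) and UTP6 least (-1.16 with Phenol, -1.14 with RNeasy and -1.10 with Direct-zol), with UTP18, its most abundant transcript, at -1.25 with Phenol, -1.28 with RNeasy and -1.26 with Direct-zol. Of the helicases and GTPases, the GTPase gene NUG1 fell most (-2.33 with Phenol, -2.55 with RNeasy and -2.60 with Direct-zol) and the DEAD-box helicase gene SPB4 least (-1.21 with Phenol, -1.15 with RNeasy and -1.18 with Direct-zol). NOG1, a GTPase of 60S assembly and the most abundant of this group, was at -1.63 with Phenol, -1.88 with RNeasy and -1.94 with Direct-zol, and the helicase gene ROK1, among the least abundant members, at -2.19 with Phenol, -2.49 with RNeasy and -2.42 with Direct-zol. Each of these values passed the test, and the largest adjusted p among them was 1.5e-05 (limma, UTP6).

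The response was also seen in other genes of the pathway. Of 98 further ribosome biogenesis factors listed by symbol, 96 were matched in the table (DBP4 and MDN1 were not matched by symbol), and 96 of 96 fell with every method. Their median log2 fold changes were -1.64 with Phenol, -1.63 with RNeasy and -1.66 with Direct-zol. NOP13 fell most in this list (-2.76 with Phenol, -2.89 with RNeasy and -2.98 with Direct-zol), and RRP7, a small-subunit factor, was among the least changed at -0.52, -0.40 and -0.40.

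Outside the 60 members, transcripts whose windows held both PAC and RRPE (284 tested) had a median heat response of -1.06 with Phenol, -1.06 with RNeasy and -1.07 with Direct-zol, and 77.1% of them were called lower with Phenol. With PAC alone (826) the Phenol median was -0.11 and 37.2% were called lower. With RRPE alone (497) it was -0.22 and 47.5%. With neither motif (4091) it was 0.07 and 28.4%. The 284 can include other ribosome biogenesis factors of the list above, and how many was not counted. Within the members, the 51 with both motifs had a median of -1.86 with Phenol, against -1.64 for the 7 with PAC alone, and these classes were not tested against each other.

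Members varied together between cultures. In heat-shocked cells, the median deviation of the 60 members from their group means was 0.20 with Phenol, 0.33 with RNeasy and 0.50 with Direct-zol in culture 1, with 48, 59 and 60 of the 60 members above the mean. In culture 3 it was -0.27, -0.25 and -0.28, with 2, 3 and 0 members above. In unstressed cells, culture 2 was low (-0.13, -0.20 and -0.18, with 2, 1 and 0 members above) and culture 4 high (0.15, 0.24 and 0.17, with 56, 58 and 58 above). These 4 combinations of culture and condition thus deviated the same way in all 3 samples taken from them, each of which was extracted separately and made into its own library. The median over all transcripts stayed between -0.02 and 0.03 in every library.

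Heat-shocked cultures 2 and 4 did not deviate alike in the 3 methods: culture 2 was at 0.09 with Phenol, against -0.16 with RNeasy and -0.09 with Direct-zol, and culture 4 at 0.01 with Phenol and 0.07 with RNeasy, against -0.14 with Direct-zol. After heat shock the members' replicate SD on the log2 scale had a median of 0.22 (Phenol), 0.26 (RNeasy) and 0.35 (Direct-zol), where the median over all transcripts was 0.15, 0.14 and 0.14. In unstressed cells it was 0.15, 0.19 and 0.14, against 0.16, 0.11 and 0.11 over all transcripts. A culture deviated differently in its heat-shocked and unstressed samples. The culture term of the model, shared by both conditions, takes up only the part of this variation that is common to them.

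**Figure D3:**
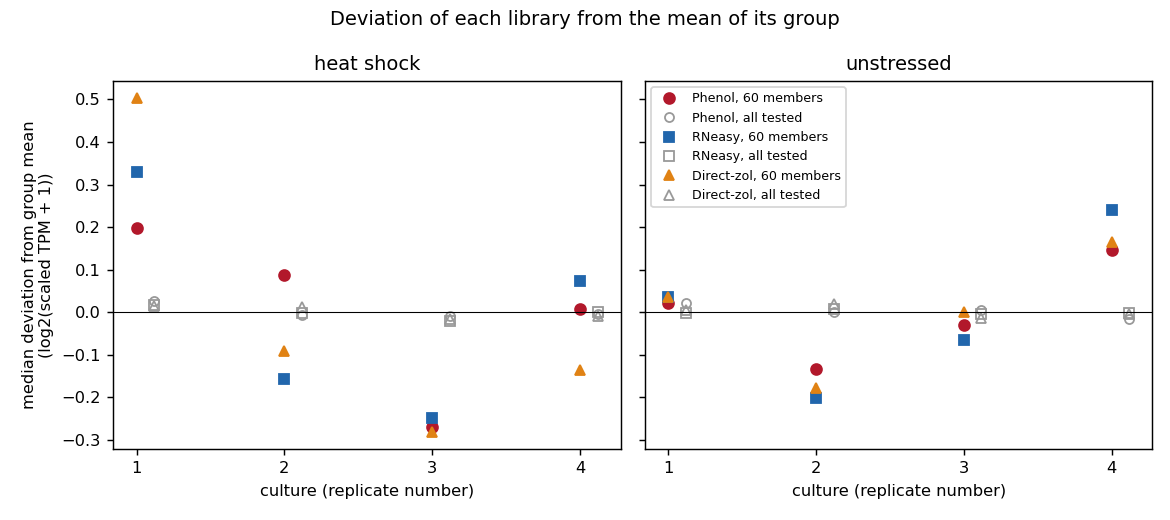
Median deviation of the 60 members (filled symbols) and of all tested transcripts (open grey symbols) from the mean of their group, on the log2(scaled TPM + 1) scale, for each of the 24 libraries by culture number (heat shock left, unstressed right). The members reach 0.50 in culture 1 and fall to -0.28 in culture 3 after heat shock, and all transcripts stay near 0.

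The heat response measured within each culture ranged accordingly. The median over members of the same-culture difference was between -1.57 and -2.09 with Phenol, between -1.55 and -2.02 with RNeasy, and between -1.40 and -2.20 with Direct-zol. In each of these 12 pairs of libraries, all 60 members were lower in the heat-shocked one. The share of all transcripts lower in each pair was not computed. In the fits over all cultures, 3075 (Phenol), 3026 (RNeasy) and 3005 (Direct-zol) of the 6137 transcripts had a log2 fold change below 0. Cultures 1 and 2 gave the weaker medians (-1.40 to -1.80) and cultures 3 and 4 the stronger ones (-1.98 to -2.20), with each method.

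The second comparison asked whether the isolation methods gave different levels of the same transcripts. Against RNeasy in unstressed cells, 17 of the 60 members were lower and 2 higher with Phenol, where 19.8% of all transcripts were called lower and 22.1% higher. Against Direct-zol in unstressed cells, 16 were lower and 2 higher (all transcripts, 21.6% lower and 22.9% higher). After heat shock, 14 were lower and 2 higher against RNeasy (21.1% and 22.6%), and 12 were lower and 2 higher against Direct-zol (20.8% and 21.8%). As shares of the members these are 28.3%, 26.7%, 23.3% and 20.0% lower, and 3.33% higher in each comparison. The median log2 fold change was -0.27 against RNeasy and -0.26 against Direct-zol in unstressed cells, and -0.21 against each kit after heat shock, with medians over all transcripts between -0.03 and 0.00. The last of these, against Direct-zol after heat shock, was -0.07 without the heat-shocked Direct-zol library of culture 1 and -0.09 without the whole of culture 1.

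These counts depended on how the model treats the cultures and on that library. With a replicate block for each culture within each condition, which takes up what the 3 samples of a culture and condition share, 26 members were lower and 4 higher with Phenol against RNeasy in unstressed cells, and 28 and 3 against Direct-zol. After heat shock they were 22 and 5 against RNeasy, and 22 and 6 against Direct-zol. In this model 43.3%, 46.7%, 36.7% and 36.7% of the members were lower, against 22.0%, 25.1%, 23.4% and 23.9% of all transcripts. Without the heat-shocked Direct-zol library of culture 1, and with the first model, 21 were lower and 2 higher against RNeasy and 21 and 3 against Direct-zol in unstressed cells, and 17 and 4 against RNeasy and 8 and 6 against Direct-zol after heat shock. The shares lower were then 35.0%, 35.0%, 28.3% and 13.3% of the members, against 20.2%, 21.9%, 21.6% and 18.6% of all transcripts. Of all transcripts, 22.3%, 23.3%, 22.6% and 20.6% were then higher, again more than among the members in each comparison.

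In the first model, most of the lower members were 60S assembly factors. Of these 22, 13 were lower and 1 higher with Phenol against RNeasy in unstressed cells, and 11 lower and 1 higher against Direct-zol. After heat shock the counts were 10 and 1 against RNeasy, and 9 and 1 against Direct-zol. None of the 6 UTP-B subunits was called in any of these comparisons (limma, adjusted p under 0.01), with 1, 0, 1 and 2 at an unadjusted p under 0.05. None of the 7 UTP-A subunits was lower, and UTP10 was higher against Direct-zol. With the replicate block within each condition, the UTP-B subunit gene PWP2 was higher against RNeasy in both conditions and against Direct-zol after heat shock (0.28 to 0.42), UTP21 was higher against Direct-zol after heat shock (0.36), and of UTP-A, UTP4 (-0.27, unstressed) and UTP9 (-0.67, heat shock) were lower and UTP15 higher (0.25 after heat shock and 0.22 unstressed) against RNeasy. The other 96 factors had 48 lower and 1 higher against RNeasy and 48 and 2 against Direct-zol in unstressed cells, and 42 and 1, and 40 and 1, after heat shock.

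The 4 members lowest with Phenol were RRP36, CGR1, NOP15 and NOP16. RRP36 (YOR287C), a factor of the early pre-rRNA cleavages and the least abundant member, had 7.75, 14.0, 8.01 and 9.74 scaled TPM in heat-shocked Phenol libraries, against 24.5, 17.5, 14.9 and 21.0 in RNeasy and 26.1, 16.3, 15.3 and 21.5 in Direct-zol libraries. In unstressed cells it had 19.9, 20.7, 26.8 and 33.2 with Phenol, against 62.0, 46.4, 51.8 and 70.7 with RNeasy and 54.6, 47.1, 60.1 and 56.5 with Direct-zol. Every Phenol library was below every kit library of the same condition. In unstressed cells the log2 fold change was -1.18 ± 0.19 against RNeasy (limma, adjusted p 3e-05) and -1.11 ± 0.19 against Direct-zol (adjusted p 5.7e-05).

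CGR1 (YGL029W), a small protein needed for processing of the 60S pre-rRNA, had 20.2, 26.5, 22.7 and 23.7 scaled TPM in heat-shocked Phenol libraries, against 78.0, 55.0, 48.7 and 47.6 in RNeasy and 72.3, 45.1, 43.0 and 59.3 in Direct-zol libraries. In unstressed cells it had 66.5, 70.3, 80.3 and 107 with Phenol, against 182, 139.8, 155 and 214 with RNeasy and 179, 135, 168 and 187 with Direct-zol. Again no Phenol library reached a kit library of its condition. The log2 fold changes against RNeasy were -1.24 ± 0.17 after heat shock and -1.09 ± 0.17 in unstressed cells. Those against Direct-zol were -1.18 ± 0.17 after heat shock and -1.05 ± 0.17 in unstressed cells (limma, largest adjusted p of the 4 3.1e-05). NOP15 and NOP16, both of 60S assembly, differed by -0.91 and -0.94 against RNeasy in unstressed cells, with -0.96 and -0.82 against Direct-zol.

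A few members went the other way. TIF6 (YPR016C), the yeast eIF6, which keeps 60S subunits from joining 40S subunits too early, had 209, 205, 196 and 222 scaled TPM in heat-shocked Phenol libraries, against 100.5, 113, 97.5 and 98.6 in RNeasy and 133, 135, 105 and 132 in Direct-zol libraries. In unstressed cells it had 455, 322, 491 and 371 with Phenol, against 265, 277, 269.6 and 236 with RNeasy and 330.1, 297, 293 and 321 with Direct-zol. The Phenol libraries lay above all those of both kits after heat shock, and in unstressed cells above all those of RNeasy but not of Direct-zol. The log2 fold changes were 1.01 ± 0.11 (limma, adjusted p 3e-07) against RNeasy and 0.72 ± 0.11 (adjusted p 1.8e-05) against Direct-zol after heat shock. In unstressed cells they were 0.63 ± 0.11 against RNeasy and 0.38 ± 0.11 against Direct-zol. The last of these lost its call in 4 of 14 settings, among them without culture 1, 3 or 4 (limma, adjusted p 0.050, 0.052 and 0.015).

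NOP1 was higher with Phenol than with RNeasy, by 0.88 ± 0.13 in unstressed cells (limma, adjusted p 1.2e-05) and by 0.51 ± 0.13 after heat shock (adjusted p 0.0024), a call that was lost without culture 2, without culture 4 and on TPM as deposited. Against Direct-zol the differences of 0.38 ± 0.13 and 0.23 ± 0.13 did not pass the test (adjusted p 0.017 and 0.13). UTP10 (YJL109C), the longest of the 60 open reading frames, had 28.4, 28.9, 14.4 and 22.4 scaled TPM in heat-shocked Phenol libraries, against 25.5, 16.6, 14.2 and 21.6 in RNeasy and 23.0, 9.30, 9.50 and 9.21 in Direct-zol libraries. With Direct-zol 3 of the 4 heat-shocked libraries lay below all Phenol libraries, and that of culture 1 lay among them. UTP10 differed by 0.89 ± 0.21 against Direct-zol after heat shock (adjusted p 0.0012) and by 0.69 ± 0.21 in unstressed cells (adjusted p 0.008), and the calls were lost in 3 of 14 alternative settings after heat shock (without culture 2, without culture 4, and with only the libraries compared) and in 7 of 14 in unstressed cells.

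**Figure D4:**
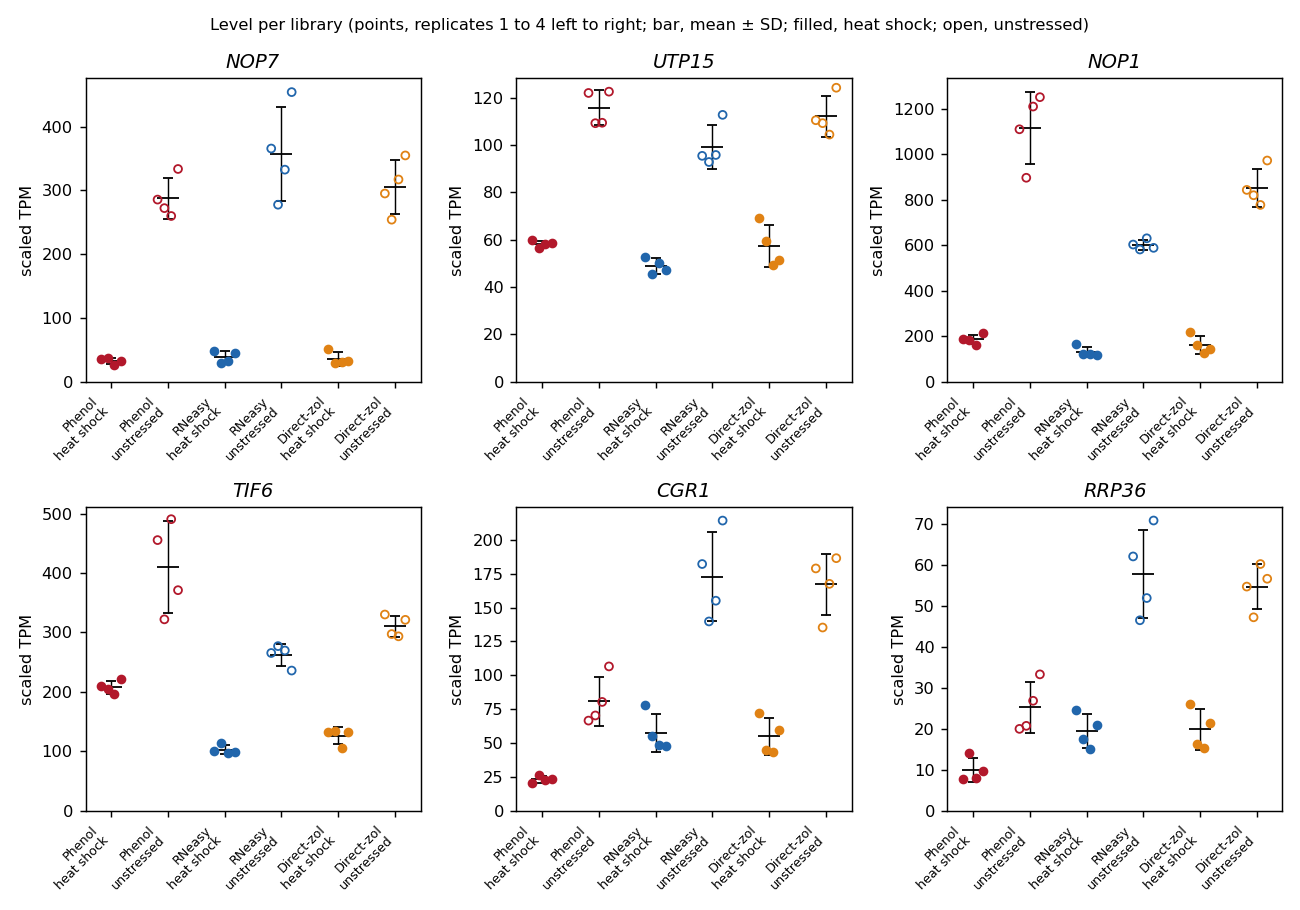
Scaled TPM of NOP7, UTP15, NOP1, TIF6, CGR1 and RRP36 in each of the 24 libraries (filled points heat shock, open points unstressed, replicates 1 to 4 left to right within a group), with the mean and SD of each group of 4. Heat-shocked libraries lie below unstressed ones of the same method in each panel, Phenol libraries lie low for CGR1 and RRP36, and high for TIF6 and, when unstressed, NOP1.

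The kits gave closer values to each other. No member was called between RNeasy and Direct-zol in unstressed or heat-shocked cells (limma), where 3.89% and 4.43% of all transcripts were called in either direction, and 6 and 8 members had an unadjusted p under 0.05. With the replicate block within each condition, and likewise without the heat-shocked Direct-zol library of culture 1, NOP1 was called lower with RNeasy in unstressed cells, and UTP10 and RRP5 higher after heat shock. The members' differences ran between -0.50 (NOP1) and 0.38 in unstressed cells, and between -0.33 (NHP2) and 0.65 (UTP10) after heat shock.

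The differences between Phenol and the kits went with the A content of the members. Across the 60 members, the share of A in the open reading frame and the Phenol against RNeasy difference in unstressed cells had a Pearson correlation of -0.90 (Spearman -0.88), and over the 5758 tested transcripts with an open reading frame in the annotation it was -0.72. Against Direct-zol the correlations were -0.75 in the members and -0.55 over all. After heat shock the members' values were -0.87 against RNeasy and -0.75 against Direct-zol. For GC content in unstressed cells, the members' correlations with the Phenol difference were 0.40 against RNeasy and 0.11 against Direct-zol. The RNeasy against Direct-zol difference in unstressed cells had correlations of 0.43 with A and -0.62 with GC content. These correlations are across genes of the same libraries, and genes are not independent replicates. Between A content and the heat response there was little relation (0.11 with Phenol, 0.10 with RNeasy and 0.16 with Direct-zol).

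Of the 20 members with the least A (24.4% to 33.9%), 0 were lower and 2 higher with Phenol against RNeasy in unstressed cells. Of the middle 20 (34.1% to 36.1%), 5 were lower and 0 higher. Of the 20 with the most A (36.2% to 45.2%), 12 were lower and 0 higher. Against Direct-zol in unstressed cells, 1, 6 and 9 were lower in the same order, and 2, 0 and 0 higher. The members' median A content, 34.9%, was above that of all these transcripts, 32.7%. The 60S assembly factors had a median of 36.5%, and UTP-B had 33.1%. Length moved with the differences as well. Across the members, log2 length and the Phenol against Direct-zol difference in unstressed cells had a correlation of 0.64 (0.39 against RNeasy). Over all these transcripts it was 0.30 (0.115 against RNeasy). The 20 shortest open reading frames (363 to 1362 bases) held 13 of the 17 members lower against RNeasy and 13 of the 16 lower against Direct-zol. The share called among all transcripts of like A content, or among all short transcripts, was not computed. The part of A content or length in the differences was not tested.

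**Figure D5:**
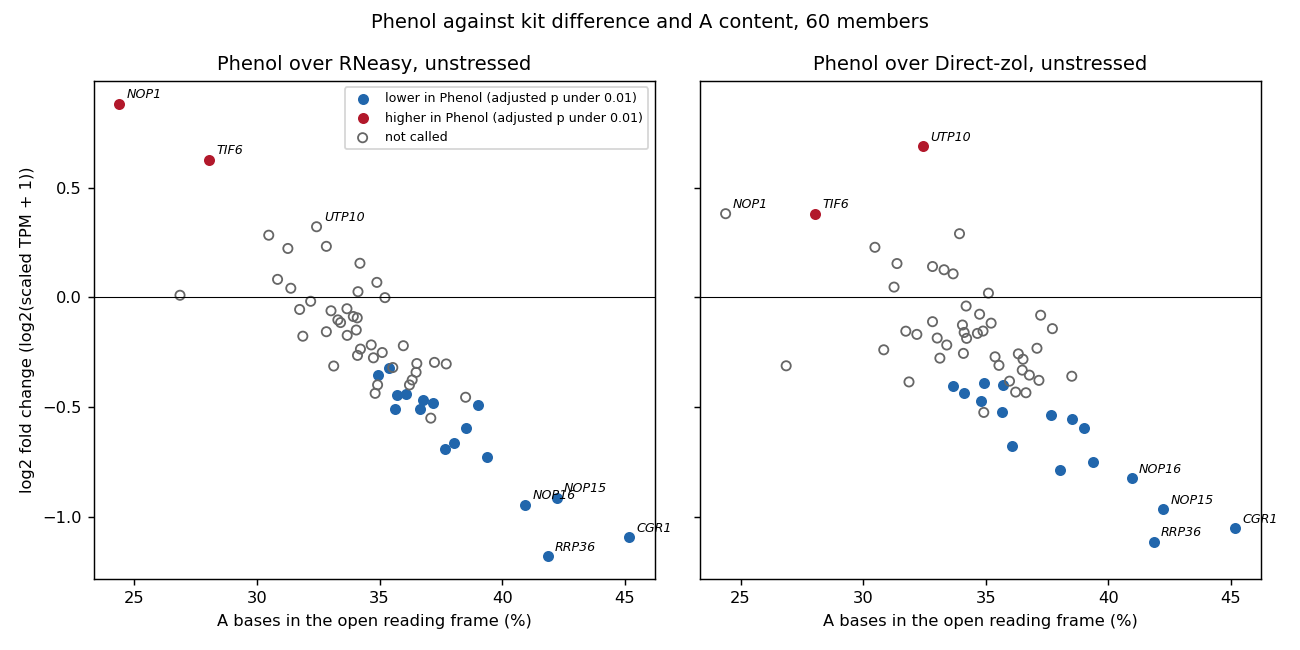
Log2 fold change of Phenol over RNeasy (left) and over Direct-zol (right) in unstressed cells against the percentage of A in the open reading frame, for the 60 members, filled where called at an adjusted p under 0.01. The values tend to fall from NOP1 and TIF6 at the A-poor end to CGR1, RRP36, NOP15 and NOP16 at the A-rich end. GAR1, also A-poor (26.9%), was not higher with Phenol (mean over both kits -0.15).

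The middle 120 bases of the open reading frames with the highest and the lowest A content among the members show the contrast, with every A in capitals (R64, 5′ to 3′ on the coding strand). CGR1 holds 56 A in this stretch (46.7%) and 45.2% in its whole frame, and NOP1 holds 26 (21.7%) and 24.4%.
CGR1 (chrVII:440184-440303, plus strand): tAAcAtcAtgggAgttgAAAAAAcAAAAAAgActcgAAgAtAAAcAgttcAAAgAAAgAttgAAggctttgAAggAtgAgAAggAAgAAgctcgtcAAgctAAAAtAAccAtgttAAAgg
NOP1 (chrIV:427796-427915, plus strand): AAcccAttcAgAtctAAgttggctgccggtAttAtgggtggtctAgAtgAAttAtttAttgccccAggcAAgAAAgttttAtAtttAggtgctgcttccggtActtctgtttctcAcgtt

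The third comparison asked whether the heat response itself differed between methods. No member's response differed between Phenol and RNeasy, Phenol and Direct-zol, or RNeasy and Direct-zol (limma interaction terms, smallest adjusted p 0.99, 0.96 and 1.0), and 0.0% of the 6137 transcripts were called in each of the 3 tests. At an unadjusted p under 0.05 there were 1, 1 and 0 members. TIF6 showed the largest member difference against both kits, 0.39 ± 0.15 against RNeasy and 0.34 ± 0.15 against Direct-zol, a shallower fall with Phenol. Over the members the differences ran between -0.37 (NOP1) and 0.39 for Phenol against RNeasy, between -0.15 and 0.34 for Phenol against Direct-zol, and between -0.09 and 0.28 for RNeasy against Direct-zol. Among the members named above the standard errors of these differences were 0.11 to 0.29. Differences of this size were not detectable with 4 cultures in this model, whose culture term both conditions share. The comparison was not run with a replicate block for each culture within each condition.

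The heat counts did not depend on the setting, with 60 of 60 lower in each of 14 settings, but the method counts did. On TPM as deposited, where the median over all transcripts itself shifts by -0.28 against RNeasy in unstressed cells, the members called with Phenol were 38 in place of 19. Without culture 3 or 4 they were 12 and 11, and against Direct-zol 10 without culture 2 and 10 without culture 3 in place of 18. After heat shock, 10 were called against RNeasy without culture 3 and 8 without culture 4, in place of 16. The share of all transcripts called in these settings is not given here. The counts thus show how the calls moved and no trait particular to the members.

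Some members share sequence or position with other genes. REI1 overlaps SLM6 on the opposite strand, SSF1 has a close paralog, SSF2, and an intron of NOG2 holds the snoRNA gene SNR191. Whether reads were counted by strand is not given in the sources used here, so the levels of REI1 are uncertain, as are those of SSF1 where reads are shared with its paralog.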

How the data were processed

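RNA-seq was performed on polyA-enriched RNA of 24 samples, and the values used were TPM. Per the study's methods and processing notes, the authors removed adapters and low-quality bases with Trimmomatic, aligned to sacCer3 (R64) with STAR and obtained TPM from RSEM before they deposited the table. The values carry no read depth, so the replicate spread sets the precision. A second deposited table holds only the authors' edgeR comparisons and was not used. The columns named Trizol are the Direct-zol libraries.

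Each library was scaled by its trimmed mean log ratio to the average library (30% of ratios and 5% of mean abundances trimmed at each end), since a shift of abundant transcripts moves all TPM of a library. Transcripts with a mean of at least 1 TPM in at least 1 sample type were fitted as log2(scaled TPM + 1), a scale that understates changes of low transcripts, with factors for the 6 sample types and the culture and trended moderation, using limma 3.58.1 under R 4.3.3. Benjamini-Hochberg adjustment ran over all 6137 transcripts, with calls at 0.01. The script was tested on simulated data. Replicate numbers mark the culture, from which the study took 3 samples per condition, and this is where the pairing comes from. Deviations of same-numbered libraries correlated by 0.192 on average within a condition and by 0.00661 between conditions. Open reading frames, A content and windows came from the RefSeq annotation (6006 of 6685 rows matched). Figures were drawn with Python and matplotlib.

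The members, lists and tests were chosen with earlier results of these data known. Members were named for the highest level, the deepest and the shallowest heat response of each role group, the most extreme Phenol differences or the lowest level, and RRP36 and CGR1 throughout; further members named beside them were chosen after their values were seen. Alternatives were another scaling, TPM as deposited, other pseudocounts and filters, other replicate terms, and each culture left out. Leaving out the heat-shocked Direct-zol library of culture 1 was chosen after seeing the data.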

Additional observations from a re-analysis of the deposited data

Results flagged for a closer look

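Among 132 groups of 4 libraries examined (21 named members and the members' share of TPM in 6 groups), 14 had a library far from the other 3, where chance gives about 5%. These groups share libraries and are not independent. Of the 14, 8 were the heat-shocked Direct-zol library of culture 1, whose value was the highest. It held 0.480% of TPM in the 60 members together. It had 107.9 scaled TPM of NOP56 (55.7 to 61.5 in the other 3 libraries), 23.0 of UTP10 (9.21 to 9.50), 52.6 of NAN1 (29.1 to 30.6) and 51.3 of UTP18 (33.9 to 34.3). It had 31.5 of UTP21 (16.6 to 18.1), 51.0 of NOP7 (29.1 to 31.7) and 21.2 of ROK1 (9.81 to 11.3).

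In other libraries, NOP1 was at 163.7 scaled TPM in the heat-shocked RNeasy library of culture 1 (117.7 to 123.1 in the other 3). In the unstressed Phenol library of culture 4, UTP10 was at 85.6 (69.0 to 71.8) and NOP16 at 230.7 (160.0 to 170.8). UTP15 was at 112.8 in the unstressed RNeasy library of culture 4 (92.9 to 95.9). NOP15 was low at 198.1 in the unstressed Direct-zol library of culture 2 (257.1 to 264.6), and TIF6 was low at 105.5 in the heat-shocked Direct-zol library of culture 3 (132.4 to 134.8).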

How the results depend on the processing

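All 60 members were called lower after heat shock with each method under every setting, with a largest adjusted p of 0.0027 (limma). On TPM as deposited, the medians were -1.58 with Phenol, -1.54 with RNeasy and -1.59 with Direct-zol, while the medians over all transcripts were 0.19, 0.26 and 0.29.

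The counts of members called between methods moved more. On TPM as deposited, 38 were called for Phenol against RNeasy in unstressed cells and 39 after heat shock, and 22 and 29 against Direct-zol. The medians over all transcripts then shifted as well, to -0.28 and -0.33 against RNeasy and -0.11 and -0.21 against Direct-zol. With no replicate block, that is with the cultures unpaired, the unstressed counts were 12 against RNeasy and 11 against Direct-zol. With the block set within each treatment they were 30 and 31 in unstressed cells, 27 and 28 after heat shock, and 1 and 2 for RNeasy against Direct-zol. With only the libraries compared and the replicate block, they were 29 and 28 in unstressed cells, and 4 for RNeasy against Direct-zol. The cause of these shifts was not tested. Of these settings, the share of all transcripts called is given above only for Phenol against the kits with the block within treatments. The other counts thus show how the calls moved and no trait particular to the members.

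Leaving out replicates, including the added setting without the heat-shocked Direct-zol replicate 1, gave 11 to 23 for Phenol against RNeasy and 10 to 24 against Direct-zol in unstressed cells, 8 to 21 and 11 to 14 after heat shock, 0 to 1 and 0 to 2 for RNeasy against Direct-zol, and 0 in each comparison of heat responses. Without replicate 1, the calls against Direct-zol after heat shock were 7 lower and 6 higher. Among these settings, shares of all transcripts called are given above for the added one alone. No named result reversed. Of 29 method differences called for named members, 21 passed under every setting, and the other 8 fell short in 28 of their settings, UTP10 against Direct-zol in unstressed cells most often (7). Neither the heat responses nor their comparison between methods was run with the block within treatments. The heat shock element unit was in 1 member in place of 3 with the 250 bases before the start alone.

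The 4 cultures, TPM without counts and 1 isolation per culture and method limit these values. RNA integrity, in the study highest with Phenol and lowest with Direct-zol, was not in the model used here. With integrity as a factor, the study lost most of its calls between Phenol and Direct-zol and kept most of those between Phenol and RNeasy. Its part in the members' differences was not tested.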
